A study of Drosophila melanogaster with 3 samples.

Results

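The genes described here are 25 named subunits of the mitochondrial respiratory chain and enzymes of the TCA cycle in Drosophila melanogaster larvae. They were taken by gene name from the 13990 genes of both deposited tables, 12 by a name pattern (names starting with ATPsyn, CoV, Sdh and a letter from A to D, or ND and a digit, among others) and 13 as exact names. Of 16 exact names sought, CoIV, Cyt-c1 and Mdh2 are listed under the numbers CG10664, CG4769 and CG7998, and are counted below among the other genes of the pathway, as are the many subunits the tables list by number. By function, 6 of the 25 belong to complex I, 3 to complex II, 2 to complex III, 2 to complex IV, 8 to complex V and 4 to the TCA cycle. All 25 reached 1 FPKM (fragments per kilobase of transcript, scaled to library size) in the library labelled enGFP+Yki+Aac11-IR, so a split of the genes at that level leaves 0 on its lower side. The nearest values inside the threshold are far from it, at 72.1 FPKM for ND75, 83.7 FPKM for kdn and 87.6 FPKM for SdhA.

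The study asked what loss of Aac11, the fly form of mammalian API5 (apoptosis inhibitor 5), does to RNA levels. The control library came from larvae with the Actin5C-Gal4 driver and no hairpin in the label (Act>control). The RNAi library came from larvae in which the same driver, active in most tissues, expressed a hairpin transgene that targets Aac11 (Act>Aac11-RNAi). The library labelled enGFP+Yki+Aac11-IR, called the Yorkie library here, names engrailed-GFP, the growth regulator Yorkie and the same hairpin, and a partner library lacking only the hairpin was not analysed here. Wandering larvae were selected for GFP fluorescence, and 10 to 20 per Act genotype were pooled. Each group is 1 library, so no difference below has a replicate check, and no p-value is given. The source label reads wing disc cells, whereas the protocol describes ground larvae.

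Aac11 itself measured 150 FPKM in the control, 78.1 FPKM with the hairpin alone and 117 FPKM in the Yorkie library. Depths read from the FPKM steps were about 5900000 fragments for the control, 31000000 for Act>Aac11-RNAi and 16600000 for the Yorkie library. The libraries differ in tissue markers. The summed FPKM of 27 testis markers was 7343 in the control, 1966 in Act>Aac11-RNAi and 20.5 in the Yorkie library, where 9 of them, aly, can and Mst35Bb among them, were listed at 0. All 27 testis markers were kept, and 25 were lower by 2-fold or more in the RNAi library. The 7 fat body markers summed to 12844, 8447 and 27.7 FPKM and 1 of the 7 passed 2-fold, downward, in the RNAi library. Lsp2 alone measured 8453, 5243 and 7.78 FPKM. Only Lsp1gamma was higher in the RNAi library than in the control, at 308 compared with 156 FPKM, a log2 ratio of 0.97. The 14 larval muscle markers summed to 1155, 912 and 522 FPKM, but without Tm1, a tropomyosin gene at 491 FPKM in the Yorkie library and left out after its values were seen, the other 13 summed to 888, 587 and 31.1 FPKM. Of the 13 muscle markers that were kept, 3 passed 2-fold, downward, with the hairpin alone, and TpnC47D was listed at 0 in the control. In the opposite direction, the 9 markers listed for the wing disc summed to 131, 172 and 521 FPKM. That list includes the Hox gene Ubx, which is not specific to the wing disc, at 9.78, 12.1 and 80.5 FPKM. The 8 neuron markers, of which 1 was at least 2-fold higher in the RNAi library, summed to 80.0, 117 and 34.01 FPKM. In the Yorkie library Syx1A and elav, named after their values were seen, measured 22.8 and 9.98 FPKM, compared with 9.85 and 8.72 FPKM in the control. Each of the other neuron markers was under 1 FPKM there. The part of tissue content in the values below was not tested, and fewer cells of a type and less RNA per cell cannot be told apart in these bulk libraries.

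As background, the TCA cycle oxidises acetyl groups in the mitochondrial matrix and hands the electrons to the respiratory chain. Complex I takes them from NADH and complex II, which is also the succinate dehydrogenase of the cycle, from succinate. Complexes III and IV pass them through cytochrome c to oxygen, and complex V, the ATP synthase, uses the resulting proton gradient to make ATP. Most subunits are encoded in the nucleus, and larval muscle, fat body, growing discs and the testis all use the pathway. Drosophila also carries second copies of many of these genes, and several of the best known are expressed mainly in the male germ line.

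The named genes were slightly lower in the RNAi library than in the control, with a narrow spread. Of the 25, 24 had a negative log2 ratio of RNAi over control (FPKM + 1 in each library), Idh was the exception, and the median was -0.35, with a range from -0.67 for Pdsw to 0.01 for Idh. Over all 11330 genes whose mean over the Act libraries reached 1 FPKM (the kept genes), 52.6% had a negative log2 ratio and the median was -0.03. Among the 7566 kept genes that reached 1 FPKM with Yorkie (the Yorkie-detected genes), 46% were negative and the median was 0.04. With the RNAi library rescaled to equal upper quartiles, 20 of the 25 were negative, and the median of all kept genes moved to 0.17, so that the genes stood 0.30 below it compared with 0.32 as deposited.

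None of the 25 passed 2-fold. In all, 0 were at least 2-fold lower and 0 at least 2-fold higher, where 17% of all kept genes were lower and 3.7% higher. Among Yorkie-detected genes these shares were 3.22% and 2.7%. A count of 0 of 25 therefore lies near that second background. The fragments behind each value ranged from about 141 to 5294 in the control, counted on the shortest annotated transcript so that intervals are at their widest. The exact binomial 95% counting interval of the log2 FPKM ratio lay below 0 for 24 genes and spanned 0 for Idh. It lay below 0 for 35.2% and above 0 for 29.2% of 11123 kept genes with a fragment count, and these shares were 26.3% and 34.6% of the 7423 that were Yorkie-detected. Genes with fewer fragments have wider intervals. These intervals cover counting error between a pair of libraries and not the spread between larvae.

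**Figure D1:**
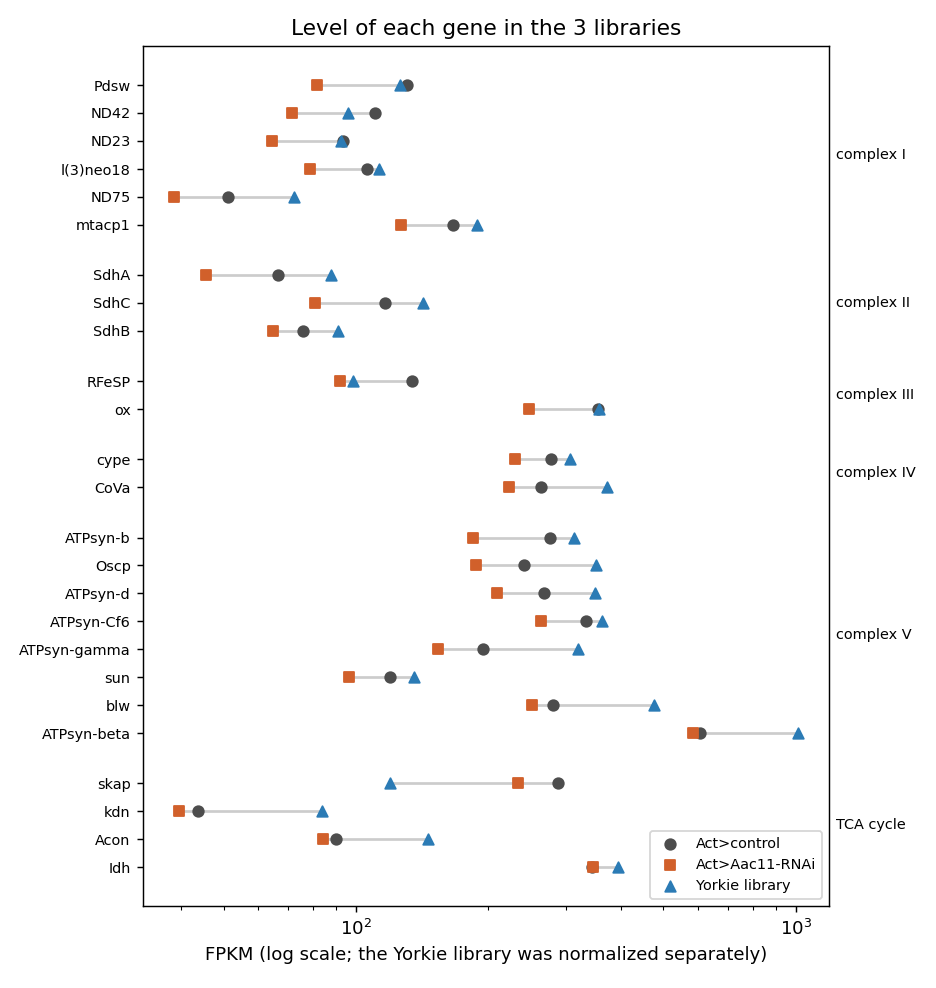
FPKM (log axis) of the 25 genes in the Act>control (circles), Act>Aac11-RNAi (squares) and Yorkie (triangles) libraries, grouped by complex, with 1 library per group and a grey line joining the lowest and highest value. The square lies left of the circle for every gene but Idh, and skap is the gene whose Yorkie value, 120 FPKM, is the lowest of its 3.

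Complex I genes had log2 ratios between -0.67 and -0.39, all 6 negative. Pdsw (current symbol ND-PDSW), an accessory subunit, measured 131 FPKM in the control, 81.7 FPKM in Act>Aac11-RNAi and 126 FPKM in the Yorkie library, and its log2 ratio of -0.67 was the most negative of the 25. Its locus spans 3466157 to 3467334 of chromosome 2L, plus strand, in Release 6 (dm6) coordinates. The accessory subunit ND42 (chromosome 3R, 22027709 to 22029393) measured 110, 71.5 and 96.1 FPKM in the same order. For both, the counting interval of the log2 FPKM ratio ended at about -0.50, well away from 0, running from -0.85 to -0.50 for Pdsw and from -0.74 to -0.51 for ND42.

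The core subunits of complex I were placed within that range. ND23, a core iron-sulfur subunit, measured 93.3 FPKM in the control, 64.3 FPKM in Act>Aac11-RNAi and 92.3 FPKM in the Yorkie library. ND75, the largest iron-sulfur subunit, encoded on the X chromosome (8248651 to 8251687), was the lowest of the group at 51.1, 38.7 and 72.1 FPKM. The log2 ratios of this pair were -0.53 and -0.39, so core and accessory genes overlapped. The accessory subunit gene l(3)neo18 (ND-SGDH) measured 106, 78.8 and 113 FPKM, and its exons overlap the opposite-strand gene Atg12, from which reads cannot be told apart without strand. The mitochondrial acyl carrier protein gene mtacp1 (ND-ACP) was the highest of the 6, at 166, 127 and 188 FPKM, and the nearest to 0 of the group with a log2 ratio of -0.39.

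Complexes II and III gave similar ratios, apart from SdhB. SdhA, the flavoprotein that binds succinate, measured 66.5 FPKM in the control, 45.6 FPKM in Act>Aac11-RNAi and 87.6 FPKM in the Yorkie library, a log2 ratio of -0.53. The membrane anchor gene SdhC measured 116, 80.6 and 142 FPKM, a log2 ratio of -0.52. SdhB, the iron-sulfur subunit between flavoprotein and membrane anchor, measured 75.8, 64.7 and 90.8 FPKM. Its log2 ratio of -0.23 was the smallest of complex II, and its counting interval, from -0.38 to -0.08, did not overlap that of SdhA, from -0.65 to -0.44. The level of SdhA over that of SdhB was thus 0.877 in the control, 0.705 in Act>Aac11-RNAi and 0.964 in the Yorkie library. SdhA and SdhB each overlap an unnamed gene on the other strand (CG11257 and CG15237).

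In complex III, the Rieske iron-sulfur protein gene RFeSP measured 134 FPKM in the control, 91.8 FPKM in Act>Aac11-RNAi and 98.6 FPKM in the Yorkie library. The small subunit gene ox, whose single transcript of 331 nt is the shortest of the 25, measured 356, 247 and 356 FPKM. Their log2 ratios were -0.54 and -0.53. The gene ox overlaps the mitochondrial ribosomal protein gene mRpL18 on the other strand, and RFeSP overlaps CG14352.

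Complex IV genes were nearer to 0, at log2 ratios of -0.27 and -0.24. The subunit 6C gene cype measured 277 FPKM in the control, 231 FPKM in Act>Aac11-RNAi and 306 FPKM in the Yorkie library. CoVa (COX5A, subunit 5A) measured 264, 223 and 373 FPKM. The pair stood within 1.22-fold of each other in each library. With the median of all kept genes of like transcript length subtracted, both ratios turned positive, at 0.10, and with the median of Yorkie-detected genes of like length subtracted both stayed negative.

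Complex V held the gene with the highest level, and its catalytic pair had the smallest differences within the complex. ATPsyn-beta, the catalytic subunit, on chromosome 4 from 1031484 to 1034917, had the highest level of the 25 in each library, at 605 FPKM in the control, 583 FPKM in Act>Aac11-RNAi and 1013 FPKM in the Yorkie library. The alpha subunit gene blw (chromosome 2R, 22799099 to 22802180) measured 281, 251 and 476 FPKM. Their log2 ratios were -0.05 and -0.16, and both turned positive with equal upper quartiles, to 0.16 and 0.05, and ATPsyn-beta also with equal FPKM sums, to 0.08. Although the proteins stand in equal number in the enzyme, the RNA of the beta gene over that of the alpha gene was 2.15 in the control, 2.32 in Act>Aac11-RNAi and 2.13 in the Yorkie library. ATPsyn-beta overlaps CG11076 on the other strand, and blw overlaps no annotated gene.

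The rotor and stalk genes of complex V had log2 ratios from -0.58 to -0.31. In the rotor, ATPsyn-gamma, the central shaft, measured 195, 154 and 320 FPKM, and sun, the epsilon subunit on the X chromosome, measured 120, 96.4 and 135 FPKM in the control, RNAi and Yki libraries. The interval for sun was the widest of the 25, from -0.58 to -0.04, on about 141 control fragments. Among stalk genes, ATPsyn-b measured 277, 185 and 313 FPKM, a log2 ratio of -0.58, the most negative of the complex. The other stalk genes stood close together, ATPsyn-d at 267, 209 and 349 FPKM, Oscp (ATPsynO) at 241, 188 and 352 FPKM and ATPsyn-Cf6 (coupling factor 6) at 334, 263 and 363 FPKM. Their log2 ratios were -0.35, -0.36 and -0.34. The interval for ATPsyn-b, from -0.67 to -0.49, did not overlap those of these 3, which began at -0.47 or nearer to 0.

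The TCA cycle group had the smallest median difference, and Idh, counted in it, had the smallest difference of the 25. The NADP-dependent isocitrate dehydrogenase gene Idh (chromosome 3L, 8356404 to 8360906), whose enzyme makes NADPH and is distinct from the NAD-dependent enzyme of the cycle, measured 343 FPKM in the control, 345 FPKM in Act>Aac11-RNAi and 394 FPKM in the Yorkie library. The aconitase gene Acon (mAcon1) measured 90.0, 84.1 and 146 FPKM. The citrate synthase gene kdn, on the X chromosome, was the lowest of the 25 in the control, at 43.8 FPKM, with 39.7 FPKM in Act>Aac11-RNAi and 83.7 FPKM in the Yorkie library. Log2 ratios were 0.01 for Idh, -0.10 for Acon and -0.14 for kdn, and those of Acon and kdn turned positive with equal upper quartiles, at 0.12 and 0.07, as did Acon with equal FPKM sums, at 0.04. The gene skap (ScsbetaA), which encodes a beta subunit of succinyl-CoA synthetase, stood apart from these with 289 and 233 FPKM, a log2 ratio of -0.31 with an interval from -0.37 to -0.24. The median of the 4 was -0.12, and it turned positive with equal upper quartiles, at 0.10, and with equal FPKM sums, at 0.02.

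**Figure D2:**
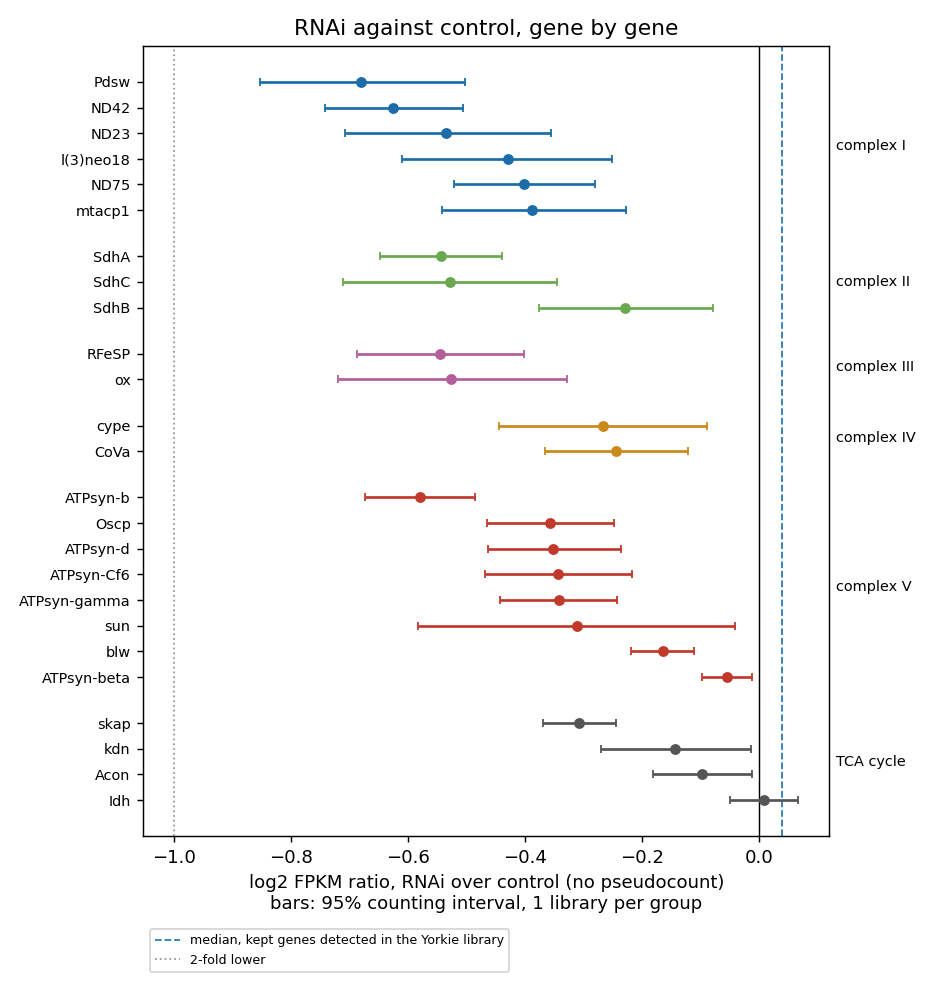
Log2 FPKM ratio of RNAi over control for each of the 25 genes, coloured by complex, with exact binomial 95% counting intervals from 1 library per group. The interval lies below 0 for 24 genes and spans it for Idh, no point reaches the dotted 2-fold line, and complex I, II and III genes other than SdhB lie at -0.39 or farther left.

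The other genes of the pathway, which the name rule does not match, gave medians near those of the named genes in complexes I, III, IV and V. A list of the pathway gave 58 further subunits and enzymes, of which 57 were Yorkie-detected. Their median log2 ratio was -0.40, 52 were negative (44 with equal upper quartiles), 1 was at least 2-fold lower and 0 at least 2-fold higher. By complex, the medians of named and other genes were -0.48 and -0.49 in complex I (6 and 28 genes), -0.53 and -0.44 in complex III (2 and 6 genes) and -0.25 and -0.28 in complex IV (2 and 7 genes). They were -0.34 and -0.37 in complex V (8 and 5 genes) and -0.12 and -0.03 in the TCA cycle (4 and 10 genes). The remaining complex II gene, CG10219 (SdhD), measured 97.0, 54.6 and 69.8 FPKM. With both sets joined, all 34 complex I genes and 8 of 14 TCA cycle genes were negative, and with equal upper quartiles 31 and 5 were, the TCA cycle median then being positive at 0.14. Differences between complexes rest on 1 library per group and were not tested.

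Several of these other genes widened the range of their complex. In the TCA cycle, CG6439 (Idh3b), a subunit of the NAD-dependent isocitrate dehydrogenase, measured 68.6, 38.7 and 45.6 FPKM, while its partner l(1)G0156 (Idh3a) measured 49.6, 55.3 and 96.4 FPKM, log2 ratios of -0.81 and 0.15. Both are subunits of 1 enzyme, so their RNAs differed in direction within it, although the positive ratio is small. The remaining listed subunit gene of that enzyme, CG5028 (Idh3g), measured 44.9, 46.3 and 50.3 FPKM, a log2 ratio of 0.05. The gene past 2-fold was CG15434 (ND-B8), a small complex I subunit, at 2.36 and 0.304 FPKM and listed at 0 with Yorkie. Since the tables hold no counts, such a 0 may be a value that could not be estimated. At the depths read here, 3 fragments on 1 kb correspond to 0.510 (control) or 0.0968 FPKM (RNAi). The transcript of ND-B8 is short, at 460 nt, so both of its Act values rest on few fragments. Its 2-fold difference therefore lies near the counting floor, and its size is uncertain. The other, Yorkie-detected complex I genes ranged in log2 ratio from -0.74 for CG8680 (ND-13A), at 152, 90.6 and 57.7 FPKM, to -0.08 for CG40002 (ND-AGGG), at 90.2, 85.0 and 78.7 FPKM.

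The second copies of these genes gave another picture. Of 26 paralogs on the list, 25 were lower by 2-fold or more in Act>Aac11-RNAi and 0 higher, with a median log2 ratio of -1.93, where 17% of all kept genes and 44.6% of kept genes under 1 FPKM in the Yorkie library were 2-fold lower. Of the 26, 25 had under 1 FPKM in the Yorkie library and 12 were listed at 0 there, while COX5BL (CG11043) measured 1.16 FPKM. Cyt-c-d, the cytochrome c gene of the male germ line and also 1 of the testis markers, measured 179, 45.3 and 0.51 FPKM, while Cyt-c-p, the cytochrome c gene of other tissues, measured 80.0, 83.3 and 252 FPKM. The exception was CG34172 (COX7AL2), at 11.1 and 11.5 FPKM and listed at 0 in the Yorkie library. The testis markers had a median log2 ratio of -1.88, close to that of the paralogs. With equal upper quartiles the same count, 25 of 26 paralogs, was past 2-fold.

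**Figure D3:**
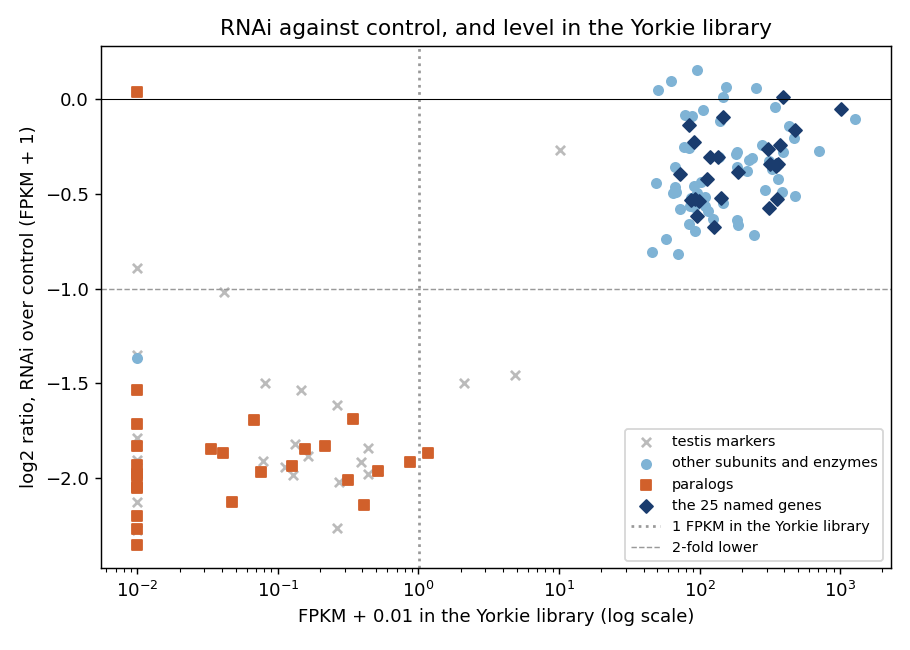
Log2 ratio of RNAi over control (FPKM + 1) against FPKM + 0.01 in the Yorkie library (log axis) for the 25 named genes (diamonds), 58 other subunits and enzymes (circles), 26 paralogs (squares) and 27 testis markers (crosses), with Cyt-c-d drawn in both of the last sets. The named genes sit at upper right between -0.67 and 0.01, and 25 of the 26 paralogs lie below the 2-fold line.

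Short transcripts had lower ratios in these libraries, and the named genes are short. Among 7482 Yorkie-detected genes with a known length, Spearman's rho between log2 ratio and transcript length was 0.44, a description across genes that share their libraries. The median length of the 25 genes was 950 nt, compared with 2032 nt for all Yorkie-detected genes, and among the 25 the rho with length was 0.30. Against the median of genes in the same of 10 length bins, taken over Yorkie-detected genes, a comparison chosen after seeing the data, all 25 were lower and the median gap was -0.23. Over all kept genes, a set that holds the testis genes, 19 were lower and the median gap was -0.16, and the 6 above their bin were CoVa, cype, sun, Idh, ATPsyn-Cf6 and SdhB. Of 1920 other Yorkie-detected genes within the 25 genes' range of both length and FPKM, 19.9% had a log2 ratio at or under -0.35, the median of the 25. In that set 56.3% were negative. That set spans the whole range and is not matched on how the 25 lengths are spread. Length bins 1 to 3, the shortest, hold 4, 9 and 2 of the 25 genes. The lower quartile of Yorkie-detected genes in those bins was -0.46, -0.43 and -0.34.

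The gap to genes of like length differed by complex. Medians were -0.40 for complex I, -0.34 for complex II and -0.37 for complex III. They were -0.06 for complex IV, -0.17 for complex V and -0.22 for the TCA cycle. The 4 TCA cycle genes have the longest median transcript length of the groups, 2305 nt, although single genes of other groups are longer than some of them. The 10 other TCA cycle genes had a median gap of -0.07, with 5 of the 10 under their bin. SdhA showed the widest gap, -0.67, with a transcript of 2750 nt, and ND42 followed at -0.60, whereas Idh lay at -0.01.

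**Figure D4:**
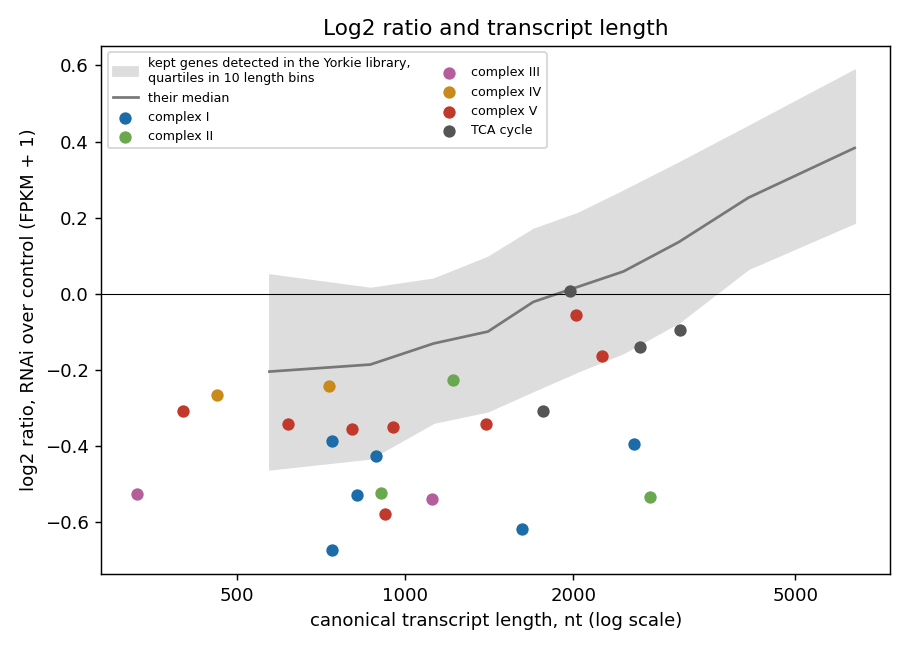
Log2 ratio of RNAi over control (FPKM + 1) against canonical transcript length (log axis) for the 25 genes, coloured by complex, over the median (line) and quartiles (grey band) of Yorkie-detected genes in 10 length bins. The line starts to the right of the shortest transcripts, all 25 genes lie below the median of their own bin, Idh by 0.01, and the long complex I and II genes ND75, ND42 and SdhA lie below the band.

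Other gene sets gave a scale for these values. Mitochondrial ribosomal protein genes, which translate the mitochondrially encoded subunits, had a median log2 ratio of -0.38 over 71 Yorkie-detected genes, with a median length of 774 nt and a median gap to genes of like length of -0.21. Those values lie close to the -0.35 and -0.23 of the named genes. Cytosolic ribosomal protein genes, of similar length at 828 nt, had a median of -0.12 over 84 genes and a gap of 0.03. Proteasome genes, longer at a median of 1393 nt, had a median log2 ratio of -0.06 over 29 genes and a gap of -0.01. These differences between sets were not tested.

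Ranks within each library, which no scaling changes, gave the same direction. In the RNAi library 4 of the 25 genes ranked higher among all genes than in the control, namely kdn, Acon, blw and Idh. Of 2445 other Yorkie-detected genes in the same range of mean FPKM over the Act libraries, 70.1% did. That set leaves out genes under 1 FPKM in the Yorkie library, the testis genes among them. The sum over the 25 genes was 0.548% of all FPKM in the control and 0.488% in the RNAi library. The order of the genes by level was nearly the same in both, with a Spearman's rho of 0.97 over 25 genes, as a description.

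The Yorkie library, normalized separately, was read through ranks and through shares of the 25 genes' own sum. The 25 genes made up 0.761% of its FPKM, and each ranked at or above percentile 88.8 of all genes, compared with 76.3 in the control. Of the 25, 23 ranked higher than in the control, and the exceptions were skap and RFeSP. Among 2445 other Yorkie-detected genes in the same range of mean FPKM over the Act libraries, 61.5% did. That set was limited by level in the Yorkie library, the library whose ranks are compared. More genes were listed at 0 there, 3460 compared with 1571 in the control. The order by level followed the control less closely, with a rho of 0.86.

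Within that sum, complex V took the largest share in each library, and most in the Yorkie library. Its 8 genes held 46.1% of the 25 genes' FPKM in the control, 47.3% in Act>Aac11-RNAi and 53.5% in the Yorkie library. Complex I held 13.1%, 11.3% and 11.1%, and the TCA cycle 15.2%, 17.23% and 12.0%. Idh, counted in the TCA cycle here, alone held 6.82%, 8.47% and 6.34% of the sum. The order of the groups depends on the name rule, which matched 8 of 13 complex V genes but 6 of 34 complex I genes. With the other subunits joined, complex I summed to 4937, 3662 and 4368 FPKM in the control, RNAi and Yorkie libraries. Complex V then summed to 4172, 3429 and 6007 FPKM, and was the higher only in the Yorkie library. In complex V, blw, ATPsyn-beta and ATPsyn-gamma had the highest ratios, with Yorkie shares 1.37, 1.36 and 1.33 times those of the control. Among all 25, the citrate synthase gene kdn had the highest ratio, with 0.871% in the control and 1.35% with Yorkie.

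The gene skap had the lowest ratio of Yorkie share to control share among the 25. It held 5.73% of the sum in the control, 5.72% in Act>Aac11-RNAi and 1.93% in the Yorkie library, and its FPKM was 289, 233 and 120. Relative to kdn, the enzyme at the entry of the cycle, its level was 6.58-fold in the control, 5.87-fold in Act>Aac11-RNAi and 1.43-fold in the Yorkie library. Since kdn had the highest share ratio of the 25, this pair gives the widest contrast between the control and the Yorkie library. Succinyl-CoA synthetase pairs an alpha subunit with either of a pair of beta subunits, of which skap is the ADP-forming one. Over the GDP-forming beta gene Sucb, at 66.9, 51.9 and 67.1 FPKM, the level of skap was 4.31-fold in the control, 4.49-fold in Act>Aac11-RNAi and 1.78-fold in the Yorkie library. Over the alpha gene Scsalpha (Scsalpha1), at 182, 183 and 148 FPKM, it was 1.59-fold, 1.28-fold and 0.808-fold, so in the RNAi library the ratio to the alpha gene was lower than in the control and the ratio to Sucb was not. The next lowest share ratio was that of RFeSP, with 2.66% in the control and 1.59% with Yorkie. The summed fat body, muscle, testis and neuron markers were lower in the same library, and their part in these shares was not tested. The exons of skap overlap CG11964 on the other strand.

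**Figure D5:**
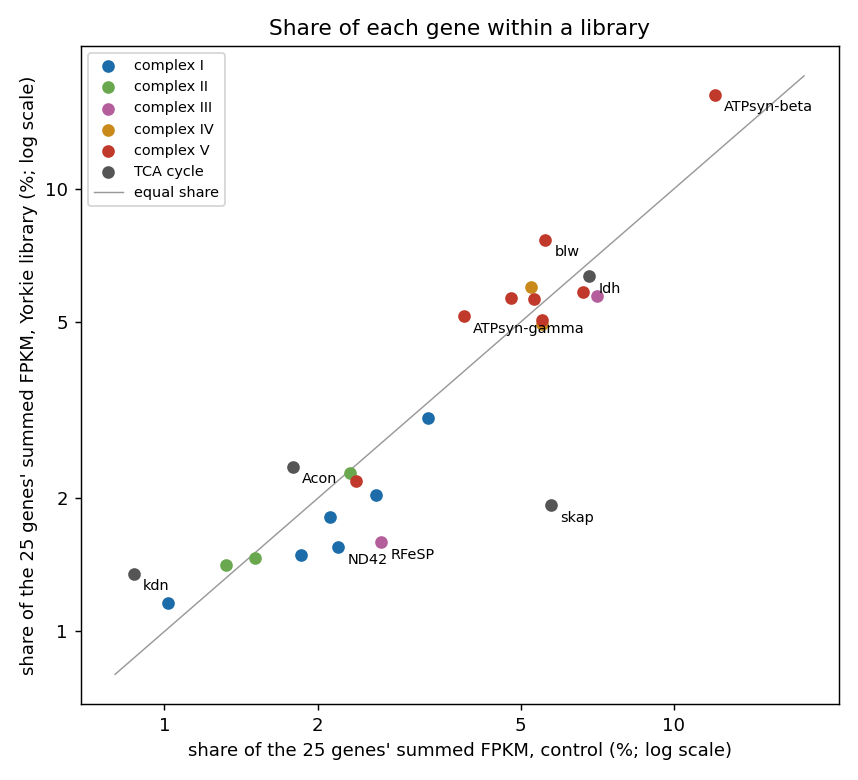
Share of the 25 genes' summed FPKM held by each gene in the control (x axis) and in the Yorkie library (y axis), in percent on log axes, with a line of equal shares and 1 library per group. The gene skap lies farthest from the line, at 5.73% and 1.93%, and complex V genes blw, ATPsyn-beta and ATPsyn-gamma lie above it.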

How the data were processed

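RNA was measured in 3 libraries with 1 per group. Per the labels' protocols, 4 µg of total RNA was depleted of ribosomal RNA for each library. The authors deposited FPKM values in 2 tables, with the Yorkie library in a table of its own. Without giving roles, the submitters' processing notes list Cuffdiff 2.2.1, TopHat2 2.0.12, CASAVA 1.4 and dm6. The sources used here state no annotation, strand setting or scaling. No ratio of FPKM values was formed between tables. Ranks, shares and level ratios between genes within a library were compared across them. FPKM values and marker sums of the Yorkie library were also set beside those of the Act libraries, although it was normalized separately.

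Log2 ratios used a pseudocount of 1 FPKM, and genes were kept at a mean of at least 1 FPKM over the Act libraries. Depth was read from the FPKM steps of single-transcript genes over 1000 nt, less 200 nt each. Of the 300 lowest values per library, 85.2%, 83.6% and 94.3% of those above 0.5 fragments lay within 0.2 of a whole number of fragments, where even spacing gives 40%. The 200 nt had the best mean share among lengths from 0 to 220 nt in steps of 20, so these shares are the best found. At 220 nt the Yorkie library gave no usable depth. With 0 nt taken off, the shares were 80.1%, 72.1% and 93.3%, and the depths were 5100000, 26700000 and 14500000 fragments. Depth enters only the fragment numbers and counting intervals. A first method missed the depth of simulated data and was replaced by this one, which was tested on simulated data. Positions and lengths came from the Ensembl annotation of Release 6, and 13802 symbols matched RefSeq. Of 112 pathway entries, 2 were dropped because name and number disagreed or were not matched, and 1 had no gene in the tables. Members, lists and rules were chosen with earlier results of these data known. By rule, any of the 25 genes and other pathway genes past 2-fold could be named, and other pathway genes under 2-fold were named after their values were seen. The comparison sets by FPKM and length range, the rank comparisons, the shares within a library and the level ratios between genes were also chosen after seeing the data. Promoter words and sequences were not analysed here. Python 3.11.15 with pandas 2.3.3 and scipy 1.17.1 was used.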

Additional observations from a re-analysis of the deposited data

How the results depend on the processing

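No paired analysis was possible because each group has 1 library, and for the same reason no library could be left out. The counts of 0 genes past 2-fold in either direction were the same under each alternative run. The median log2 ratio of -0.35 stayed between -0.34 and -0.35 with pseudocounts of 5 and 0.1 FPKM, with no filter, with a filter at 5 FPKM, with Yorkie thresholds of 0.5 and 5 FPKM and over the 15 genes that overlap no other gene, and was -0.30 with the median of genes of at least 10 FPKM set to 0. It was -0.13 with equal upper quartiles, -0.21 with equal FPKM sums, -0.16 with length bin medians of all kept genes subtracted and -0.23 with those of Yorkie-detected genes, the last chosen after seeing the data, as was the restriction to genes without overlap. No gene was under 0.5, 1 or 5 FPKM in the Yorkie library, so the median of that side has no value.

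Signs turned positive as follows. With equal upper quartiles the TCA cycle median was 0.10, ATPsyn-beta 0.16, Acon 0.12, blw 0.052 and kdn 0.072. With equal FPKM sums the TCA cycle median was 0.018, ATPsyn-beta 0.083 and Acon 0.041. With length bin medians of all kept genes subtracted, the complex IV median was 0.10, CoVa 0.10, cype 0.10, sun 0.059, ATPsyn-Cf6 0.025 and SdhB 0.0071. Rescaling moved the median of all kept genes from -0.03 to 0.17 and 0.09, and relative to it the genes stood at -0.32, -0.30 and -0.31. The Act control is the shallower library and sets most of the counting error.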

Other observations

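Mitochondrial genes outside the chain and the cycle were read from a list of 24 genes. Of 5 pyruvate dehydrogenase genes, which feed the cycle, 0 passed 2-fold, and the subunits differed among themselves. CG11876 (Pdhb), the E1 beta gene, measured 110 FPKM in the control, 70.0 FPKM in the RNAi library and 77.6 FPKM in the Yorkie library, whereas the E1 alpha gene l(1)G0334 (Pdha) measured 64.4, 68.8 and 79.1 FPKM. Pdk, the kinase that switches the complex off, measured 28.2, 42.0 and 12.5 FPKM. These 3 were chosen after their values were seen.

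Of 7 carrier, porin and import genes, 2 were lower by 2-fold or more in Act>Aac11-RNAi, where 17% of all kept genes were. Porin2, a porin paralog, measured 137, 29.7 and 0.545 FPKM, and Ant2, the second ADP/ATP carrier gene, measured 67.8, 19.1 and 3.71 FPKM. Their partners porin and sesB, named after their values were seen, measured 512 and 406 FPKM and 384 and 387 FPKM in the Act libraries. Among 12 genes of mitochondrial DNA upkeep, regulation and dynamics, park, the ubiquitin ligase of mitochondrial quality control, was the 1 gene at least 2-fold lower, a share under that 17%, at 19.2, 8.59 and 5.43 FPKM. Spargel (srl), the fly PGC-1 homolog, had the most positive log2 ratio of that set, 0.82, at 6.76, 12.7 and 49.4 FPKM, named after its values were seen.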
